A study of Mus musculus with 18 samples.

Results

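Interferon-stimulated genes are the genes that cells switch on when an interferon binds its receptor. A set of 43 of them, named one by one, was followed through cortex and skull bone of BALB/c mice after ischemic injury. The members were found by gene symbol in the table of read counts, where all 43 stand among 25918 gene names, and all 43 passed the filter on low counts in each of the 8 comparisons made. Poly(A)-selected RNA was sequenced from 18 libraries in 6 groups of 3, each group from BALB/c animals. The cortex groups are controls, 2 days and 6 days after ischemic injury that the labels place in the brain. The skull groups, taken from the interparietal bone at the back of the skull, are controls, 2 days and 4 days after an ischemic injury that the labels place in the skull. Injured tissue was collected so as to hold both the ischemic region and its surroundings, and the labels give no age, sex, genetic modification or drug. They do not say whether each library is a separate animal, so p-values measure the spread between these libraries, which may be technical.

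Type I interferons bind the receptor pair Ifnar1 and Ifnar2, whose kinases Jak1 and Tyk2 phosphorylate Stat2. Stat2 joins Irf9 in a complex that binds the interferon-stimulated response element (ISRE) in promoters, while interferon gamma acts through the gamma-activated site (GAS). The products inhibit viral entry, RNA translation and replication, and many are sensors that raise further interferon; in the brain, microglia, astrocytes, endothelial cells and infiltrating myeloid cells can express them.

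The promoters of 6 members are shown because they span the range of motifs and, for Rsad2 and Cmpk2, because these neighbours behaved differently in cortex. Each is 125 bases before the transcribed region, from RefSeq windows on GRCm38.p6, read 5′ to 3′ on the gene's strand. Capitals mark letters that match an ISRE-like motif (GAAANNGAAA, where N is any base) or, in Irf1, a GAS-like motif (TTCNNNGAA), each searched on both strands. The coordinates are chr4:156200819-156200943 (minus strand) for Isg15, chr19:34640746-34640870 (plus) for Ifit1, chr3:142559901-142560025 (plus) for Gbp3, chr12:26456453-26456577 (minus) for Rsad2, chr12:26469079-26469203 (plus) for Cmpk2 and chr11:53769889-53770013 (plus) for Irf1.
Isg15: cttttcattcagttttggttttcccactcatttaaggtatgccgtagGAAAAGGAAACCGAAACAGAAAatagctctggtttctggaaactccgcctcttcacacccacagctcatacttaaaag
Ifit1: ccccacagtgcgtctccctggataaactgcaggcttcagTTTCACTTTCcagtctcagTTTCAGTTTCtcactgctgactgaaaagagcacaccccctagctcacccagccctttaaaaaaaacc
Gbp3: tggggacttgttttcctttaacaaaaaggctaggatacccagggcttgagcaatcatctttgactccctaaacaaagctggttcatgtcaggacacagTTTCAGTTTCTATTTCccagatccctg
Rsad2: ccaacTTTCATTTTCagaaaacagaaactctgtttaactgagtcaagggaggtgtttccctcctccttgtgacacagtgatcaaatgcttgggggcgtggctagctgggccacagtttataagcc
Cmpk2: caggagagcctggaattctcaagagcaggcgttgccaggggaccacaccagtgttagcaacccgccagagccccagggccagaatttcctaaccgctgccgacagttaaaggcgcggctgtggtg
Irf1: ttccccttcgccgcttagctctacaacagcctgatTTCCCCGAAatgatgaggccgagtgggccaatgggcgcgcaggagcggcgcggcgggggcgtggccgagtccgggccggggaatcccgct

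Of the 43 members, 33 had a RefSeq window of 300 bases, from 250 before to 50 after the start. The ISRE-like motif lay in the windows of 18 of these 33, or 54.5%, against 3.99% of the 27025 genes with a window. The GAS-like motif lay in 10 of 33, or 30.3%, against 9.55% of all genes. Both motifs were present in 6 members and neither in 11; a stretch can match both. Isg15 carried 3 overlapping ISRE-like matches, and Ifit1 and Gbp3 carried 2 each. Rsad2 carried 1 and Cmpk2 none of either motif. Of the 11 members with neither motif, all except Cmpk2 were called higher in cortex at day 2, among them Irf7, Ifitm1, Oasl2 and Ifi44. The median log2 change there was 2.35 for members with an ISRE-like match and 1.86 for those with a window but no such match. A link between motif and change was not tested. A match is a description of letters and not a measured binding site.

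Positions of the genes are on mm10, from GENCODE M21. The members lie on 15 chromosomes, several of them as neighbours of the same family. Ifit2, Ifit3 and Ifit1 follow each other on chromosome 19, Gbp7, Gbp3 and Gbp2 on chromosome 3, and Ifitm2, Ifitm1 and Ifitm3 on chromosome 7. On chromosome 16 the exons of Dtx3l (35926511 to 35939151, minus strand) and Parp9 (35938470 to 35972605, plus strand) overlap, and the strand setting of the counting is not given, so reads of this pair may be shared. The exons of Irf9 and Rnf31, of Irf7 and Phrf1, and of Igtp and Irgm2 overlap as well. Counts of Ifit3 and Oas1a are uncertain for another reason, since Ifit3b and Oas1g are near-identical copies.

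Total counts per library were 13005050 to 27654269. Levels are given as CPM, each count divided by the size of its library after TMM scaling within a tissue. Each log2 fold change stands with its standard error from edgeR's quasi-likelihood fit, and a gene was called at an adjusted p below 0.05 (Benjamini-Hochberg over all genes tested). Neuron and bone markers followed the labels: 8 neuron markers summed to 4400 to 8647 CPM in cortex and 39.9 to 582.9 CPM in skull, and 6 osteoblast and osteocyte markers to 21175 to 73255 CPM in skull and 14.9 to 495.6 CPM in cortex. The microglia list did not, at 180.2 to 574.5 CPM in cortex and 726.5 to 990.5 CPM in skull. Skull libraries also carried transcripts from elsewhere, with choroid plexus markers at up to 7766 CPM. Skull day 2 replicate 3 stood apart from the other skull libraries in the members themselves, so the main skull day 2 results are also given without it.

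The summed level of the members tells the course in short. In cortex it was 207.8, 220.3 and 203.1 CPM in controls, 630.1, 785.1 and 747.4 CPM at day 2 and 307.2, 410.9 and 355.2 CPM at day 6. The 3 cortex groups did not overlap, and day 6 lay between the others. In skull it was 1149, 1357 and 1212 CPM in controls, 1413, 1470 and 3680 CPM at day 2 and 1267, 1281 and 1157 CPM at day 4. The day 2 group was above the controls in every library, but only replicate 3 by a wide margin. As a share of all counts, which needs no scaling between tissues, the members held 0.0195% to 0.0214% in control cortex, 0.0661% to 0.0829% in cortex at day 2 and 0.116% to 0.150% in control skull. Injured cortex thus stayed below uninjured bone in this share.

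**Figure D1:**
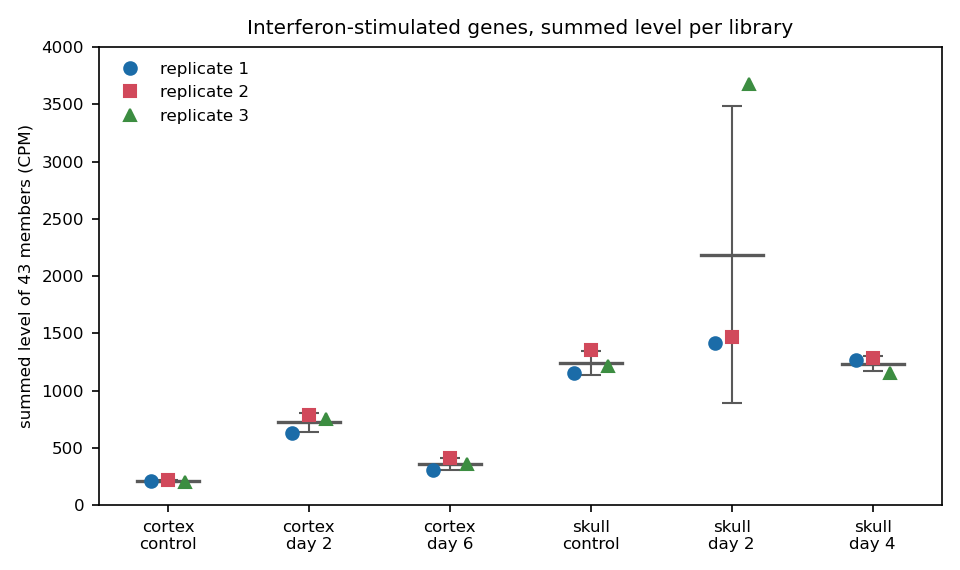
Summed CPM of the 43 members in each library, by group (horizontal axis); points are libraries, the horizontal bar is the mean and the error bar the SD over 3 libraries. Cortex rose from 203.1 to 220.3 CPM in controls to 630.1 to 785.1 at day 2, and in skull 1 day 2 library reached 3680 CPM while the other skull libraries lay between 1149 and 1470.

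In cortex at day 2, 42 of 43 members were called higher than in controls and none lower, against 14.7% of all genes tested called higher. Their median log2 change was 2.12, with 0.00 over all genes. The libraries of the groups did not overlap for 42 members, against 21.8% of all genes lying wholly above controls. The exception in both counts was Cmpk2, a mitochondrial nucleotide kinase that sits beside Rsad2. The OAS group had the highest group median at 3.59, followed by the IFITM group at 3.38; the sensors had the lowest at 1.64.

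Among the transcription factors, all 4 rose at day 2. Irf9, the DNA-binding subunit of the type I complex, measured 13.2, 11.9 and 9.70 CPM in controls, 35.7, 49.5 and 41.2 CPM at day 2 and 21.9, 23.8 and 21.8 CPM at day 6. Each group stood clear of the others. Its change was 1.86 ± 0.15 at day 2 (adjusted p = 2.7e-06) and 0.96 ± 0.15 at day 6 (adjusted p = 0.0010). Irf7, the factor that amplifies type I interferon transcription, changed more, by 3.06 ± 0.31. Irf1, a target of the gamma pathway with the GAS-like match shown above, rose by 1.59 ± 0.21. Stat2, which joins Irf9 in that complex, had the smallest rise of the 4 at 0.82 ± 0.11, and at day 6 it measured 0.05 ± 0.11 from controls (adjusted p = 0.83).

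The IFIT proteins bind foreign RNA caps and ends and block its translation; all 3 rose at day 2. Ifit3 measured 2.22, 1.15 and 2.08 CPM in controls, 11.1, 13.8 and 8.30 CPM at day 2 and 4.07, 5.59 and 5.33 CPM at day 6. The groups did not overlap, and the change was 2.61 ± 0.29 at day 2 (adjusted p = 3.1e-05). Ifit1 rose by 2.79 ± 0.34 and Ifit2 by 1.18 ± 0.17. Ifit2 started from a higher level in controls, at 11.2 to 12.9 CPM, than Ifit1 at 0.670 to 1.26 CPM, although such levels are not corrected for gene length.

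The IFITM proteins sit in membranes and hinder the fusion of viruses. Ifitm3, at 141009586 to 141010770 on chromosome 7, measured 6.33, 7.40 and 5.66 CPM in control cortex, 58.9, 96.8 and 69.7 CPM at day 2 and 17.0, 28.9 and 20.9 CPM at day 6. The lowest day 2 library was above every day 6 library, and the lowest day 6 library above every control. It rose by 3.54 ± 0.24 at day 2 (adjusted p = 3.5e-06), an 11.6-fold change. Per kilobase of merged exons it was the member with the highest level in cortex at day 2, at 110.8 ± 28.8 CPM per kb (SD, n = 3), ahead of Bst2 at 18.9 ± 5.7. Ifitm1 rose by 3.38 ± 0.30 and Ifitm2 by 2.77 ± 0.36.

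Isg15 is a ubiquitin-like protein that is attached to other proteins, and Usp18 removes it and also dampens the type I receptor. Isg15 measured 1.42, 0.707 and 0.916 CPM in controls and 7.26, 12.1 and 7.22 CPM at day 2. At day 6 it measured 3.45, 2.79 and 0.970 CPM, so that replicate 3 lay within the range of controls. The change was 3.13 ± 0.42 at day 2 (adjusted p = 0.00015) and 1.28 ± 0.43 at day 6 (adjusted p = 0.077). Usp18 followed with 2.61 ± 0.48 at day 2.

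Enzymatically active OAS proteins sense duplex RNA and lead to activation of RNase L, which does not hold for every OAS-like protein. Isg20 is an RNA exonuclease. Oasl2 measured 3.56, 1.71 and 1.46 CPM in controls, 26.4, 39.2 and 25.6 CPM at day 2 and 6.75, 9.52 and 8.48 CPM at day 6. No library of a group overlapped another group, and the change at day 2 was 3.76 ± 0.31 (adjusted p = 9.2e-06). Oas3 changed by 4.36 ± 0.93 and Oasl1 by 3.87 ± 0.70, but these rest on 4 and 13 counts over the 3 control libraries. Isg20 had the least secure call of the group, at 2.03 ± 0.68 (adjusted p = 0.044), and lost it without cortex control replicate 2 or 3 or cortex day 2 replicate 2 or 3 (adjusted p from 0.067 to 0.19).

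The sensors Ddx58 (RIG-I), Ifih1 (MDA5) and Dhx58 (LGP2) bind viral RNA, Zbp1 binds Z-form nucleic acid and can trigger necroptosis, Eif2ak2 (PKR) halts translation on duplex RNA, and Trim25 ubiquitinates RIG-I. Eif2ak2 measured 8.08, 10.6 and 11.0 CPM in controls, 33.6, 31.0 and 35.8 CPM at day 2 and 12.2, 17.4 and 15.6 CPM at day 6. Day 2 was far above both other groups, and day 6 was narrowly above controls. The change was 1.76 ± 0.16 at day 2 (adjusted p = 8.2e-06) and 0.61 ± 0.16 at day 6 (adjusted p = 0.030). Zbp1 had the largest fitted change of the 43, at 5.79 ± 0.73 (adjusted p = 9.1e-05). It measured 0, 0.186 and 0 CPM in controls, 2.66, 3.33 and 5.93 CPM at day 2 and 1.18, 1.88 and 0.970 CPM at day 6. Its control value rests on 5 counts in 1 library, so the size of the fold is poorly fixed although the groups do not overlap.

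Among the other antiviral effectors, 4 of 5 rose. Bst2 (tetherin), which holds budding virions at the cell surface, measured 3.14, 2.05 and 0.666 CPM in controls, 12.9, 22.8 and 15.4 CPM at day 2 and 6.39, 8.75 and 7.68 CPM at day 6. The groups were separate, and the change at day 2 was 3.12 ± 0.42 (adjusted p = 0.00039). Rsad2 (viperin), which makes a chain-terminating nucleotide, rose by 2.00 ± 0.35, Mx1 by 2.15 ± 0.65 and Mx2 by 1.34 ± 0.27. The Mx1 call was lost without cortex control replicate 1 or 3 or any 1 of the cortex day 2 libraries (adjusted p from 0.058 to 0.097). Mx1 in many laboratory mouse strains encodes a defective protein, and Mx2 is annotated as a polymorphic pseudogene, so their transcripts here need not give working protein.

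Cmpk2 was the member that did not follow. It measured 27.1, 32.4 and 32.8 CPM in control cortex, 33.1, 25.8 and 25.7 CPM at day 2 and 22.7, 30.7 and 28.4 CPM at day 6. These 3 groups overlapped, and the day 2 change was -0.13 ± 0.14 (adjusted p = 0.59). Per kilobase, Cmpk2 was the member with the second highest level in control cortex, at 7.39 ± 0.76 CPM per kb (SD, n = 3), after Ifitm3 at 9.53 ± 1.29. Rsad2 and Cmpk2 point away from each other on chromosome 12, with 12.8 kb between them.

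PARP proteins attach ADP-ribose to proteins, and Dtx3l is a ubiquitin ligase that partners Parp9. Parp9 measured 4.11, 4.28 and 3.50 CPM in controls, 16.8, 16.4 and 19.9 CPM at day 2 and 9.68, 15.5 and 10.3 CPM at day 6, with no overlap between groups. It rose by 2.16 ± 0.21 at day 2 (adjusted p = 1.0e-05) and by 1.58 ± 0.21 at day 6. Dtx3l, Parp14 and Parp12 rose by 1.68 ± 0.21, 1.85 ± 0.26 and 1.08 ± 0.16 at day 2.

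The guanylate-binding proteins and immunity-related GTPases attack the vacuoles of intracellular pathogens and are strong targets of interferon gamma. All 6 rose, in a narrow band of 1.79 to 2.54. Irgm1 had the smallest adjusted p of the 43 members, 6.5e-07, at 2.12 ± 0.14. It measured 8.63, 7.92 and 8.33 CPM in controls, 31.7, 40.03 and 36.5 CPM at day 2 and 14.6, 18.5 and 16.9 CPM at day 6. The spread within each group was small beside the distance between them. Gbp3 rose by 2.54 ± 0.21 and Iigp1 by 2.48 ± 0.70, the latter with day 2 libraries of 4.38, 6.77 and 13.6 CPM. The Iigp1 call was lost with no filter on low counts (adjusted p = 0.082) and without any 1 of cortex control replicates 1, 2 and 3 and cortex day 2 replicates 2 and 3 (adjusted p from 0.062 to 0.11). Of the remaining members, Ifi44, a cytoplasmic protein of little known function, measured 1.01, 1.23 and 1.33 CPM in controls, 12.1, 12.7 and 14.1 CPM at day 2 and 4.99, 10.5 and 7.19 CPM at day 6. It stayed highest among its group, with 3.44 ± 0.28 at day 2 and 2.67 ± 0.28 at day 6 (adjusted p = 6.9e-05). Ifi35, Rtp4 and Xaf1 rose by 1.91, 2.05 and 1.78 at day 2.

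**Figure D2:**
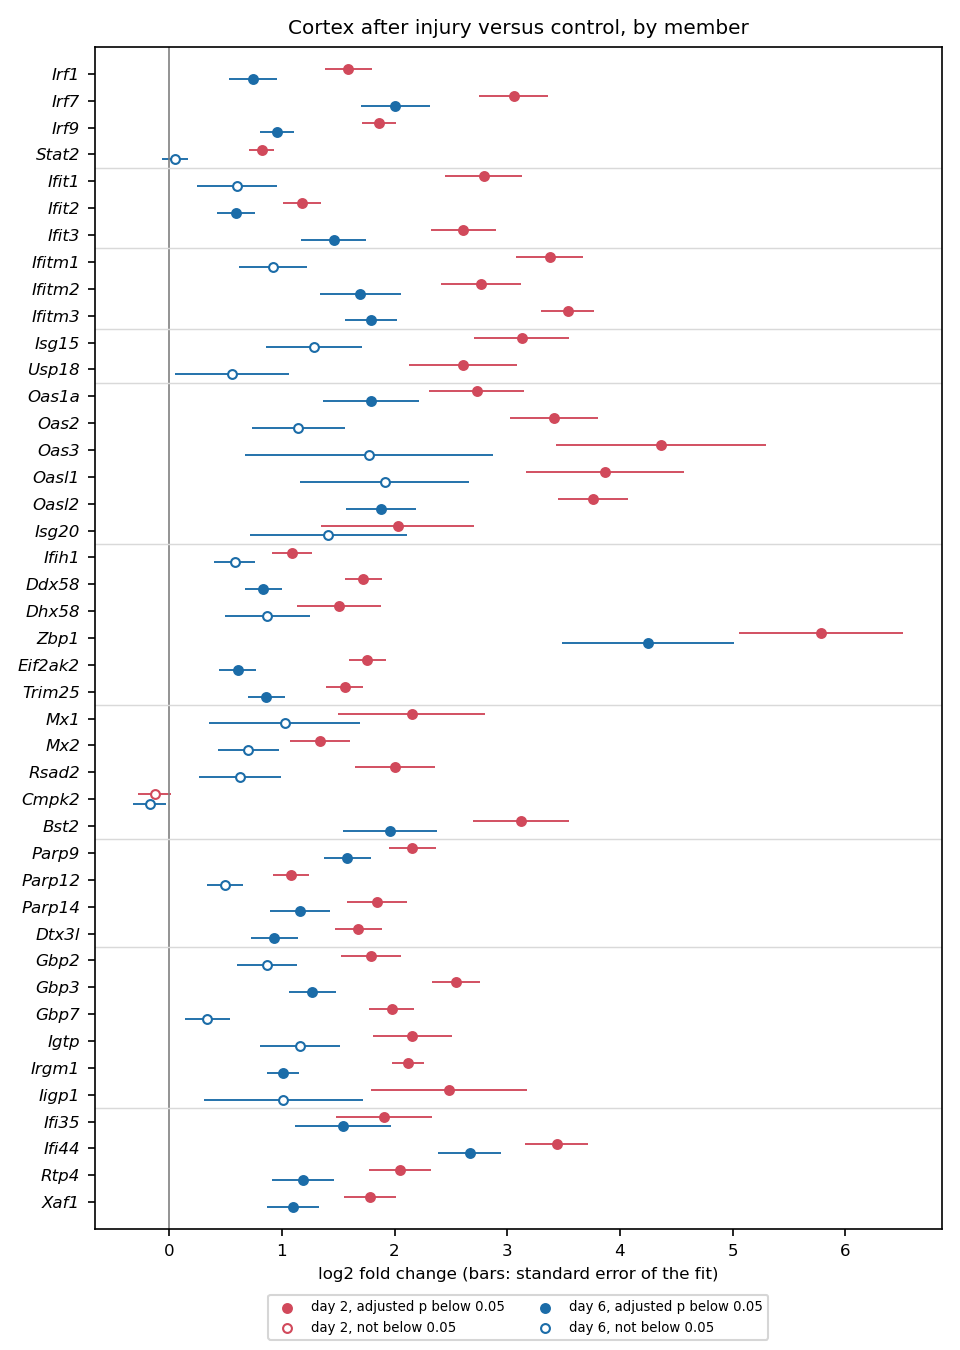
Log2 fold change of each member in cortex at day 2 (red) and day 6 (blue) against controls, with standard errors of the fit; filled points have an adjusted p below 0.05 and grey lines separate the groups of members. All points except those of Cmpk2 lie right of 0, with Zbp1 farthest at 5.79 and 4.25.

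At day 6, 23 of 43 members were called higher than controls and none lower, against 7.93% of all genes called higher. The median log2 change of the members was 1.03. The libraries lay wholly above controls for 28 members, against 16.1% of all genes. All 4 of Ifi35, Ifi44, Rtp4 and Xaf1 and 4 of 6 sensors were among the 23, but neither Isg15 nor Usp18. Measured directly between the days, 24 of 43 were called lower at day 6 than at day 2 and none higher, against 6.26% of all genes called lower, with a median of -0.99. These include Ifitm1, which changed by -2.45 ± 0.28 (adjusted p = 0.00021), Ifit1, by -2.19 ± 0.33 (adjusted p = 0.0014), and all 4 transcription factors. Parp9 and Ifi44 measured -0.58 ± 0.20 and -0.77 ± 0.24, with adjusted p of 0.073 and 0.056. The day 6 count was 15 without cortex day 6 replicate 2, against 4.65% of all genes in that fit. The count between days was 15 without cortex day 6 replicate 3, against 2.59% of all genes. The day 2 and day 6 comparisons share their control libraries.

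Markers of several cell types moved in cortex with the members. At day 2, 14.7% of all genes were called higher and 9.99% lower. Of 7 monocyte markers 5 rose at day 2, and their summed level went from 76.0 to 118.9 CPM in controls to 315.6 to 557.3 CPM at day 2 and 205.0 to 434.6 CPM at day 6. All 6 macrophage markers rose at day 2 (20.1 to 27.4 CPM in controls, 116.8 to 168.8 CPM at day 2 and 103.0 to 299.0 CPM at day 6), as did 6 of 8 neutrophil markers, the 6 that passed the filter (7.85 to 11.98, then 85.5 to 113.2, then 34.9 to 47.9 CPM). Microglia markers split, with 4 of 8 higher and 2 lower at day 2, while their sum went from 180.2 to 206.2 CPM to 343.9 to 365.7 CPM and was highest at day 6, at 365.4 to 574.5 CPM. The microglia list is not particular to brain, as it also summed to 726.5 to 990.5 CPM in skull. All 6 endothelial markers rose at day 2. The astrocyte list summed to 4686 to 5506 CPM in controls, 6517 to 7179 CPM at day 2 and 6169 to 6795 CPM at day 6. B cell markers summed to at most 1.94 CPM in every cortex library. Neuron markers summed to 6553 to 8647 CPM in controls and 4400 to 5550 CPM at day 2. Their part in the changes of the members was not tested, and in bulk RNA more cells of a type and more RNA per cell cannot be told apart.

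The pathway around the members was read from lists of symbols. The interferon genes themselves were not analysed here. Of 6 receptor chains, 3 rose in cortex at day 2 and none fell, against 14.7% of all genes called higher and 9.99% lower. Il10rb, the shared chain of the lambda receptor, changed by 1.17 ± 0.19, Ifnar2 by 1.03 ± 0.18 and Ifngr1, the ligand-binding gamma chain, by 0.71 ± 0.14. Among the receptor kinases, Tyk2 changed by 0.51 ± 0.14 (adjusted p = 0.019). Jak1 and Jak2 did not pass, at 0.11 ± 0.09 and 0.18 ± 0.11.

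Of 16 sensors and adaptors upstream of interferon that were tested, 12 rose at day 2 and none fell. Over all genes 14.7% were called higher and 9.99% lower. Tlr7, the endosomal sensor of RNA, went from 2.00 to 3.48 CPM in controls to 16.6 to 21.0 CPM at day 2 (2.81 ± 0.24, adjusted p = 4.0e-06). Myd88, the adaptor of Tlr7, changed by 1.50 ± 0.18. Ifi204, a DNA sensor of the AIM2 family, had 3 counts over the control libraries and 245 over those of day 2, a ratio of 108.8 with a 95% interval of 36.8 to 531.4 that covers counting error only. Of 11 negative regulators tested, 3 rose: Socs3, an inhibitor of JAK signalling induced by several cytokines (3.41 ± 0.23), the phosphatase Ptpn6 (2.76 ± 0.23) and the dNTP hydrolase Samhd1 (1.12 ± 0.18). Of 37 further interferon-stimulated genes tested, 34 rose at day 2 and 25 at day 6, against 14.7% and 7.93% of all genes. Their medians were 2.08 and 1.39. The 3 with the smallest adjusted p were Ifi27 (1.76 ± 0.12), Trim30a (2.77 ± 0.20) and Lgals3bp (2.46 ± 0.19).

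Skull bone started from another level. In controls, 41 of 43 members were lower in cortex than in skull and 1 was higher, against 36.4% of all genes lower and 34.5% higher, and the median log2 difference, cortex minus skull, was -3.42. The largest fitted differences were those of Oas3 at -6.88 ± 0.50 and Isg20 at -6.66 ± 0.60. They rest on 4 and 31 counts over the 3 control cortex libraries, with the lowest Isg20 library at 0.0372 CPM. The size and rank of these folds are therefore poorly fixed. Cmpk2 was the member higher in cortex, by 1.46 ± 0.15 (adjusted p = 0.00014): its skull controls measured 11.8, 9.19 and 11.9 CPM. Oas1a did not pass, at -2.24 ± 1.17 (adjusted p = 0.13), and it had no count in 1 of 3 skull controls. Monocyte markers summed to 1221 to 1298 CPM in control skull and 76.0 to 118.9 CPM in control cortex, and neutrophil markers to 1164 to 1887 CPM and 7.85 to 11.98 CPM; their part in the difference between tissues was not tested.

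At day 2 in skull, 5 of 43 members were called higher than controls and none lower, against 17.8% of all genes called higher. The median log2 change of the members was 0.89, with -0.01 over all genes. The libraries lay wholly above controls for 14 members, against 24.9% of all genes. All 3 IFITM genes were among the 5, together with Zbp1 and Bst2.

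Ifitm3 measured 93.8, 152.3 and 114.5 CPM in skull controls, 286.5, 304.2 and 445.5 CPM at day 2 and 125.5, 123.1 and 138.1 CPM at day 4. Every day 2 library was above every other skull library, and the change was 1.52 ± 0.21 (adjusted p = 0.0010). Ifitm1 measured 31.7, 42.2 and 34.4 CPM in controls and 64.0, 74.3 and 62.3 CPM at day 2, a change of 0.89 ± 0.15 (adjusted p = 0.0021). Its day 2 libraries lay close together, and replicate 3 was the lowest of them. Ifitm2 measured 35.2, 36.1 and 37.4 CPM in controls and 48.6, 48.1 and 51.0 CPM at day 2, a smaller change of 0.44 ± 0.08 (adjusted p = 0.0034) with little spread in either group. These 3 calls held in every fit, including each fit without 1 library. Without replicate 3, Ifitm3 changed by 1.29 ± 0.18, Ifitm1 by 0.93 ± 0.17 and Ifitm2 by 0.41 ± 0.09.

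Zbp1 measured 4.57, 8.92 and 6.01 CPM in skull controls, 19.1, 15.9 and 74.1 CPM at day 2 and 6.09, 7.91 and 4.36 CPM at day 4. All day 2 libraries were above the rest, replicate 3 by a factor of 4.24 over the mean of the other 2. The change was 2.48 ± 0.63 (adjusted p = 0.020), and 1.42 ± 0.31 without replicate 3 (adjusted p = 0.013). The call was lost without skull control replicate 1 (adjusted p = 0.079) and without skull control replicate 3 (adjusted p = 0.069). Bst2 measured 25.3, 31.4 and 31.3 CPM in controls and 42.4, 45.9 and 115.5 CPM at day 2, with no overlap. It changed by 1.21 ± 0.37 (adjusted p = 0.036), and by 0.58 ± 0.13 without replicate 3 (adjusted p = 0.012). Leaving out any 1 of the skull control libraries took its adjusted p to between 0.089 and 0.12.

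**Figure D3:**
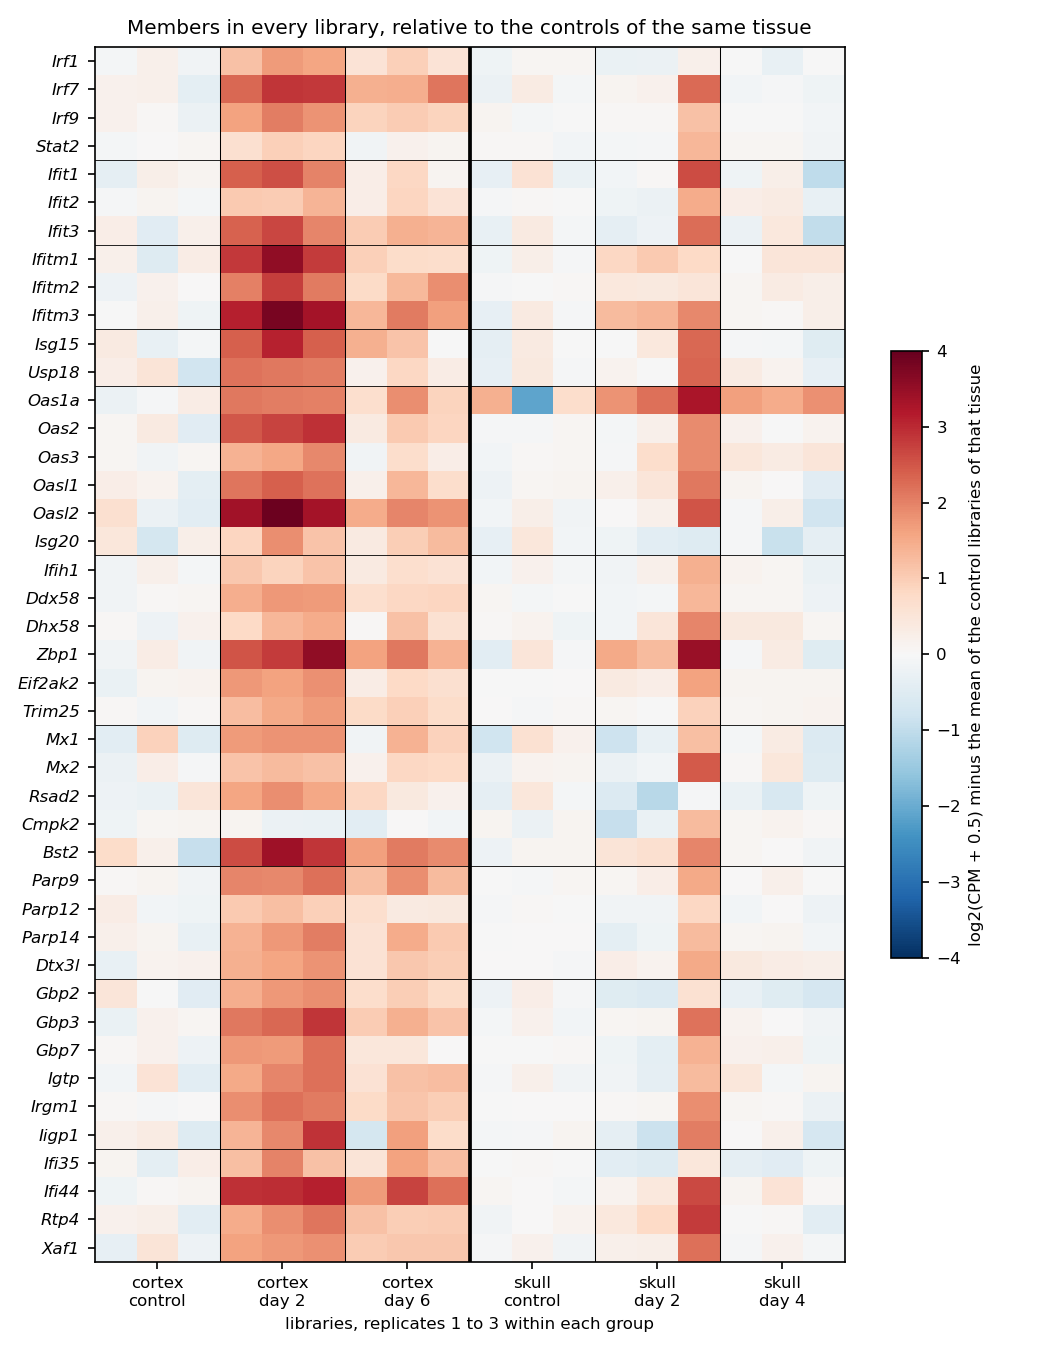
Log2(CPM + 0.5) of every member (rows) in every library (columns), minus the mean of the control libraries of the same tissue; red is higher, blue is lower, and the thick line parts cortex from skull. Cortex day 2 is red in all rows except Cmpk2, while in skull the red column is day 2 replicate 3; Oas1a varies among skull controls because 1 of them has no count.

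Most of the remaining skull signal came from 1 library. Skull day 2 replicate 3 was the highest of its group for 41 of 43 members, against 32.5% of all genes, and at least 2-fold above the mean of the other 2 libraries for 34 of 43, against 2.91% of all genes. The median ratio over the members was 2.97. Ifit1 shows the pattern: 10.4, 19.5 and 10.9 CPM in controls, 12, 13.3 and 82.4 CPM at day 2 and 11.6, 15.3 and 6.23 CPM at day 4. Replicates 1 and 2 lay within the range of controls and replicate 3 was 6.50-fold above their mean. Mx2, Iigp1, Ifit3, Oasl2 and Ifi44 had ratios of 6.51, 6.49, 5.83, 5.31 and 5.19, and Irf7, Isg15 and Usp18 of 4.47, 4.24 and 5.07. The exceptions were Ifitm1 and Isg20, with 0.90 and 0.85, and Ifitm2 was near 1 at 1.06. Ifit1, Mx2, Iigp1, Ifi44, Irf7, Usp18 and Isg15 are named here after their values were seen.

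Without that library, 7 of 43 members were called higher in skull at day 2 and 2 lower, against 13.6% and 12.5% of all genes. The member median was then 0.04. That library was left out because its member values were high, so a lower median follows from the choice. Besides the 5 above, Eif2ak2 (0.31 ± 0.08, adjusted p = 0.021) and Rtp4, a chaperone of membrane receptors (0.64 ± 0.19, adjusted p = 0.042), were called higher. Gbp2 (-0.54 ± 0.16, adjusted p = 0.041) and Ifi35 (-0.48 ± 0.14, adjusted p = 0.032) were called lower. Of the members not called with all libraries, 13 changed sign without replicate 3, among them Ifit1 (from 1.40 to -0.11), Ifit2 (from 0.60 to -0.22) and Ifit3 (from 1.07 to -0.32). Leaving out replicate 1 instead gave 12 called higher, against 13.2% of all genes, and leaving out replicate 2 gave 9, against 15%.

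**Figure D4:**
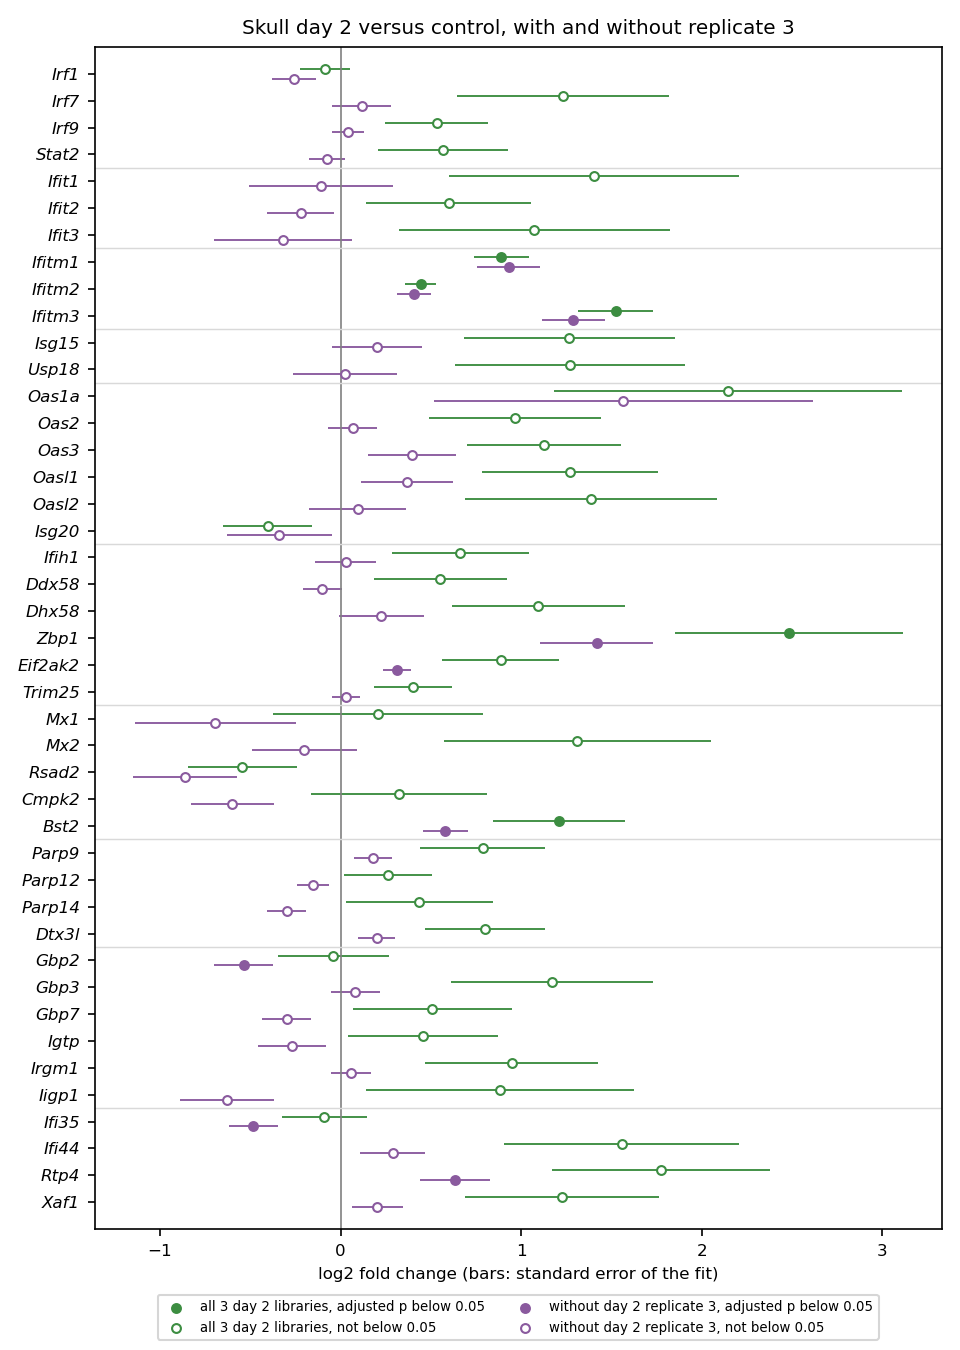
Log2 fold change of each member in skull at day 2 against controls, with all libraries (green) and without day 2 replicate 3 (purple), with standard errors of the fit; filled points have an adjusted p below 0.05. The purple points of most members lie near 0, with a median of 0.04, while the 3 IFITM genes keep their place.

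Other transcripts also set that library apart. Genes were ranked by the ratio of replicate 3 to the mean of the other 2 day 2 libraries. Ranked genes had at least 5 CPM in replicate 3 and were detected in the other 2. Symbols of Gm followed by a number, or ending in Rik, were left out. Before these limits the 43 members stood among 17450 genes tested in skull. Of the 20 with the highest ratio, 5 are in a list of 13 skeletal muscle genes written after the data were seen, and 2 are members. That short list does not hold every muscle gene among the 20: Mylk4, with the highest ratio at 63.2, Myh8, Mybpc2, Myoz1, Cacng1, Trdn, Tcap, Myom2 and Mylk2 are also known from striated muscle. Of the top 100, 24 are members and 15 are in the list of further interferon-stimulated genes. The other 61 include more muscle genes, the chemokines Cxcl2 and Ccl3 (ratios of 8.11 and 5.03) and Ifit1bl2 (4.13), an IFIT relative by name. These genes were named after their values were seen, and the 2 counts cover listed symbols only. The muscle list summed to 26.0, 313.7 and 1218 CPM in skull day 2 replicates 1, 2 and 3, so it was highest in replicate 3. It was higher still in skull control replicates 1 and 3 (5307 and 3621 CPM) and skull day 4 replicate 1 (2032 CPM), whose members summed to 1149, 1212 and 1267 CPM. Leukocyte markers were close in the 3 day 2 libraries: monocyte markers summed to 2992, 2908 and 3261 CPM, neutrophil markers to 2506, 2340 and 2601 CPM, macrophage markers to 246.3, 228.9 and 252.7 CPM and T and NK cell markers to 13.2, 15.3 and 15.3 CPM. Erythroid markers were lowest in replicate 3, at 1642 CPM against 10628 and 6394 CPM. The part of muscle, leukocyte or erythroid content in the member values of this library was not tested. The labels record nothing that singles this library out.

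**Figure D5:**
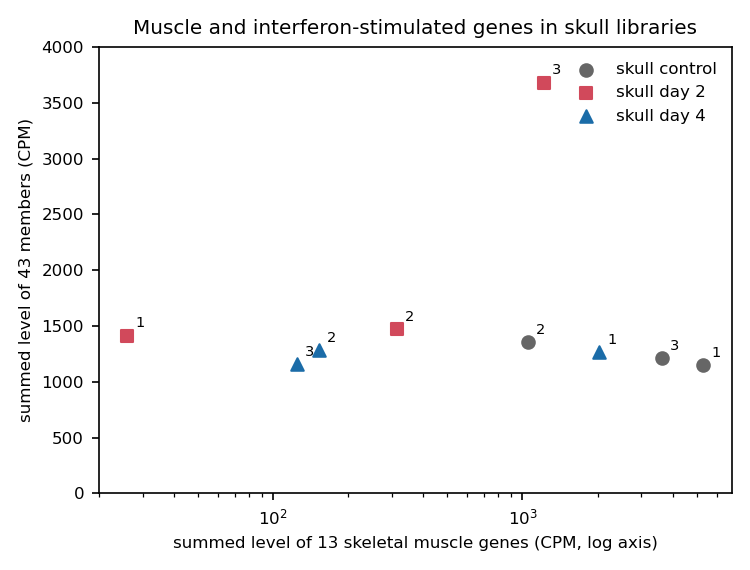
Summed CPM of 43 members against summed CPM of 13 skeletal muscle genes (log axis) in the 9 skull libraries, numbered by replicate. Skull day 2 replicate 3 stands at 3680 CPM with a muscle sum of 1218 CPM. The 3 libraries with muscle sums of 2032 to 5307 CPM have member sums of 1149 to 1267 CPM. The relation between the 2 sums was not tested.

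The pathway counts in skull at day 2 stand beside 17.8% of all genes called higher and 16.6% lower. Without day 2 replicate 3 these shares were 13.6% and 12.5%. In the wider pathway at day 2 in skull, 2 of 6 receptor chains rose, Il10rb among them at 0.56 ± 0.09 (adjusted p = 0.0016). Without day 2 replicate 3 it was 1 of 6, Il10rb at 0.50 ± 0.10 (adjusted p = 0.0082). Among the receptor kinases, Jak2 changed by 0.83 ± 0.12 (adjusted p = 0.00081), Jak1 by 0.25 ± 0.09 (adjusted p = 0.044) and Tyk2 by -0.33 ± 0.09 (adjusted p = 0.017). Without that library Jak2 measured 0.74 ± 0.12 and Tyk2 -0.31 ± 0.10 (adjusted p = 0.049), and Jak1 no longer passed (adjusted p = 0.16). Of 16 sensors and adaptors 4 rose and none fell, among them Myd88 at 0.86 ± 0.09 (adjusted p = 0.00028) and Ifi204 at 2.42 ± 0.42 (adjusted p = 0.0040). It was again 4 without the library, with Myd88 at 0.83 ± 0.11 and Ifi204 at 1.78 ± 0.21. Socs3 was 1 of 4 negative regulators that rose, by 2.39 ± 0.26 (adjusted p = 0.00048): its libraries measured 15.5, 32.1 and 20.4 CPM in controls and 104.8, 117.1 and 133.8 CPM at day 2. Without replicate 3 its change was 2.28 ± 0.29, and 4 of 11 negative regulators tested rose.

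Of 40 further interferon-stimulated genes tested in skull at day 2, 2 rose (Ifi27 and Lgals3bp) and 1 fell (Ube2l6, an enzyme that conjugates Isg15). Over all genes 17.8% were called higher and 16.6% lower. The list summed to 1058, 1084 and 2252 CPM in day 2 replicates 1, 2 and 3, beside 1180 to 1396 CPM in controls, so replicate 3 was above the controls and the other 2 below them. Without replicate 3, 2 of 40 rose and 10 fell, against 13.6% and 12.5% of all genes. Ifi27 and Lgals3bp were again the genes that rose, at 0.38 ± 0.11 and 0.65 ± 0.12. Those that fell include the T cell attractant Cxcl9 at -2.92 ± 0.47 (adjusted p = 0.0038) and the guanylate-binding protein Gbp4 at -1.32 ± 0.17 (adjusted p = 0.0019); both were named after their values were seen.

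Markers of several cell types moved in skull at day 2. Of all genes, 17.8% were called higher and 16.6% lower (13.6% and 12.5% without replicate 3). Monocyte markers were higher for 6 of 7, from 1221 to 1298 CPM in sum to 2908 to 3261 CPM, and for 4 of 7 without replicate 3. All 5 B cell markers were lower with and without that library, from 81.7 to 90.1 CPM in sum to 16.9 to 21.3 CPM. Neuron markers were lower for 7 of 8 (5 of 8 without it), from 458.1 to 582.9 CPM to 39.9 to 129.9 CPM. Of 9 T and NK cell markers tested, 4 were lower (3 without it), from 21.8 to 34.8 CPM to 13.2 to 15.3 CPM. Erythroid markers summed to 14860 to 19839 CPM in controls and 1642 to 10628 CPM at day 2, with 3 of 5 lower without replicate 3. Neutrophil markers summed to 1164 to 1887 CPM in controls and 2340 to 2601 CPM at day 2, with 1 of 8 higher without replicate 3. The osteoclast sum was also wholly above controls, and the macrophage and oligodendrocyte sums were wholly below. Choroid plexus markers summed to 6.25 to 83.0 CPM in controls and 80.0 to 7766 CPM at day 2, with 1 of 5 called higher in either fit. The part of these cells in the values of the members, the IFITM genes included, was not tested.

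At day 4 no member was called in skull against controls, in either direction, by edgeR, against 5.83% of all genes called higher and 4.79% lower. At an unadjusted p below 0.05 there was 1, with no share over all genes given here. DESeq2 also called 0 members, against 8.29% of all genes higher and 8.65% lower. So did limma voom, against 4.43% and 3.28%. Each fit without 1 library called 0, against 0.0281% to 5.87% of all genes higher and 0.0281% to 8.29% lower. The lowest shares came without skull control replicate 3. In such a fit a lack of calls does not show a lack of change. The member median was -0.00, with 21 members above and 22 below 0. Against day 2, 4 of 43 were called lower at day 4, against 11.1% of all genes: Ifitm3 by -1.42 ± 0.21 (adjusted p = 0.0025), Zbp1 by -2.57 ± 0.64, Bst2 by -1.24 ± 0.37 and Ifitm1 by -0.56 ± 0.15. Without skull day 2 replicate 3 the count was again 4, against 6.86% of all genes, with Rtp4 in the place of Ifitm1. Without skull day 4 replicate 1, Ifitm3 alone was called, against 6.38% of all genes. The groups were not sampled at matched late times, so day 4 in skull and day 6 in cortex were not compared.

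The day 2 responses of the tissues were set against each other in a fit of 12 libraries. A response here is the log2 ratio of day 2 to the controls of the same tissue, not a gain in CPM. Of 43 members, 12 had a higher response in cortex than in skull and none a lower one, against 14% of all genes higher. Most members started lower in control cortex: mean Ifitm3 went from 6.46 to 75.1 CPM in cortex and from 120.2 to 345.4 CPM in skull. Tissue, starting level and site of injury differ together and cannot be told apart. The member median of the difference was 1.52, beside 0.20 over all genes, and the values here are to be read against that shift. The IFITM genes, which rose in both tissues, were all among the 12: Ifitm1 differed by 2.54 ± 0.36 (adjusted p = 0.00082), Ifitm2 by 2.38 ± 0.28 (adjusted p = 0.00025) and Ifitm3 by 2.06 ± 0.33 (adjusted p = 0.0021). Rsad2 differed by 2.60 ± 0.48 (adjusted p = 0.0041), with skull libraries of 31.3, 56.3 and 38.3 CPM in controls and 27.9, 18.7 and 39.8 CPM at day 2, which overlap. Irf1, at 1.73 ± 0.25 (adjusted p = 0.00085), likewise overlapped in skull, with 42.7 to 50.5 CPM in controls and 39.6 to 54.8 CPM at day 2.

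Skull day 2 replicate 3 decides how many members pass this comparison. Without it, 38 of 43 had a higher response in cortex, against 11% of all genes, and the median difference was 2.37. This library was singled out by its high member values, so leaving it out lowers the skull response of most members by choice. The count and p-values without it are therefore a description only. The 11% is no matched background, since the library was not chosen on the other genes. The 5 that did not pass were Isg20, Mx1, Oas1a, Dhx58 and Cmpk2. Oasl2 went from 2.42 ± 0.90 (adjusted p = 0.090) to 3.71 ± 0.44 (adjusted p = 0.00062), and Irgm1 from 1.23 ± 0.59 (adjusted p = 0.18) to 2.11 ± 0.16 (adjusted p = 4.5e-05). The lowest count without 1 library was 7, reached without cortex control replicate 3, cortex day 2 replicate 2, cortex day 2 replicate 3 or skull control replicate 3, against 10.2%, 10.6%, 11% and 9.35% of all genes in these fits.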

How the data were processed

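Counts are raw read counts per gene as deposited by the authors, whole numbers with no normalization. Alignment tool and build, per the submitters' processing notes, are HISAT2 2.1.0 and mm10. What counted the reads, with which annotation and strand setting, is not given in the sources used here. Of 26783 lines, 865 surplus identical copies of 49 names were removed. No 2 libraries of a group were identical. Counts were fitted in R 4.3.3 with edgeR 4.0.16 (filterByExpr, TMM, robust quasi-likelihood, two-sided), by tissue over 9 libraries; the difference of day 2 responses was an interaction over 12 libraries, and the control groups were compared over 6. Adjustment (Benjamini-Hochberg) covered all genes tested. Fitted changes use a prior count of 0.125. CPM were scaled within each tissue, so they give no exact level across tissues. Where CPM of cortex and skull stand side by side, as for marker sums, they are a rough description only. Alternatives included limma 3.58.1 (voom), DESeq2 1.42.0, other scalings and filters, a replicate block and leaving out each library. The procedure was checked on simulated data. A gene of the wider pathway is not reported here. Members, lists, roles and tests were chosen with earlier results of these data known. Values in every library are given for the member with the smallest adjusted p in cortex at day 2 of each role, for members called in skull and for members called against the others; up to 3 genes per pathway list follow the same p. Genes named for another reason, such as Irf7, Ifit1, Rsad2, Oas3 or Stat2, and the promoters shown were chosen after their values were seen.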

Additional observations from a re-analysis of the deposited data

Results flagged for a closer look

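Beside 14% of all genes called higher, 12 members had a day 2 response that was larger in cortex than in skull by the interaction contrast of edgeR's quasi-likelihood fit over 12 libraries (adjusted p below 0.05). The differences in log2 units, cortex minus skull, were 2.38 for Ifitm2, 2.54 for Ifitm1 and 2.06 for Ifitm3, 1.73 for Irf1 and 1.38 for Irf9. They were 3.28 for Oas3, 2.50 for Oas2 and 2.50 for Isg20, 2.60 for Rsad2, 2.05 for Ifi35, 1.88 for Gbp2 and 1.21 for Trim25. Skull day 2 replicate 3 was singled out by its high member values. Without it, 11 of the 12 passed, and Isg20 did not (2.43, adjusted p = 0.063). Ifitm2, Ifitm1 and Ifitm3 then measured 2.41, 2.49 and 2.29, Irf1 1.90, Irf9 1.87, Oas3 4.01, Oas2 3.40, Rsad2 2.91, Ifi35 2.44, Gbp2 2.37 and Trim25 1.57. Of these 12, 6 kept their call in every alternative fit: the 3 IFITM genes, Irf1, Rsad2 and Ifi35.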

How the results depend on the processing

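No member called in a comparison changed sign in any alternative, but of those not called many did: 16 of 38 in skull at day 2, 13 of them without day 2 replicate 3, and 23 of 39 between the skull days. Of the 42 members called in cortex at day 2, 39 kept the call in every alternative; Isg20, Mx1 and Iigp1 did not. Of 23 called at day 6, 14 did, and of 24 between the days 13. Leaving out 1 library gave 39 to 41 in cortex at day 2 (10.8% to 14.5% of all genes), 15 to 27 at day 6 (4.65% to 8.91%) and 15 to 26 lower between the days (2.59% to 5.67%). In skull at day 2 it gave 3 to 12 higher (11.5% to 18.2%) and 0 to 2 lower (11% to 18.1%), with 1 to 5 lower at day 4 than at day 2 (6.38% to 8.71%); for the day 2 response of cortex against skull it gave 7 to 38 (9.35% to 16.9%). DESeq2 called 12 higher in skull at day 2 (18.1% of all genes), 7 lower between skull days (13.4%) and 22 for cortex against skull (16.4%), and the compared groups alone 3 higher at day 2 (15.7%). Between skull days, no filter, limma voom, the replicate block and the compared groups alone each gave 2 (6.73%, 11.1%, 8.54% and 15%). The cause of these moves was not tested. Over all genes the median difference of responses was 0.20 with TMM and 0.13 with RLE factors, and 0.08 with all 18 libraries in 1 fit.

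Replicate numbers could not be shown to pair libraries, as correlations of same-numbered deviations ran from -0.49 to 0.32 and no comparison had all above 0.1. With the replicate block, 41 members were higher in cortex at day 2 (14.8% of all genes) and 25 at day 6 (8.36%), 28 were lower between the cortex days (6.85%), 4 were higher in day 2 skull (15.1%), and 11 passed for the cortex response against that of skull (13%). With 3 libraries a group, depth limits mainly Zbp1, Oas3 and Oasl1 in control cortex, at 5, 4 and 13 counts.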
